A study of Mus musculus with 6 samples.

Results

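Igf1 and Igfbp4, the 2 genes of the insulin-like growth factor (IGF) axis taken up here, were picked by symbol from a table of 632 genes that the authors had selected, and both were found in it. Igf1 encodes insulin-like growth factor 1 and Igfbp4 encodes IGF binding protein 4. RNA had been sequenced from epithelial cells sorted by flow cytometry from the prostates of C57BL/6 mice aged 3 months. The groups were 3 control libraries and 3 libraries with the genotype label E-cadherin conditional knockout, and the study's design text calls the controls littermates. The values were taken as FPKM, read fragments scaled by the authors for transcript length and library size, though the deposited header gives no unit. Levels can be set side by side between genes only as far as that scaling holds. The sources used here do not name the driver of the deletion, the sorting marker or the number of animals behind a library. p-values therefore describe the spread among 3 libraries a group, and part of that spread may be technical.

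IGF1 is a secreted peptide that signals growth and survival through the IGF1 receptor and, downstream of it, the PI3K-AKT-mTOR and MAPK cascades. In the prostate it is known mainly as a product of stromal cells that acts on the epithelium, and macrophages also make it. IGFBP4 is a secreted protein that binds IGFs and mostly holds them away from the receptor. The protease PAPP-A cleaves IGFBP4 and so frees IGF, and the stanniocalcins inhibit PAPP-A.

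The authors' own name for the list calls its members diff-genes between groups. The rule and the threshold behind that selection are not stated in these sources. Of the 632 genes, 450 were higher and 182 lower in knockout libraries, and 3 had a fold of knockout over control between 0.85 and 1.4. The list thus held almost no gene with a small difference, and being on it is no independent sign of one. Cdh1, the gene of E-cadherin, was not analysed here, and the labels could not be checked on it. All control titles end in L2 and all knockout titles in L7, and whatever these marks stand for cannot be told apart from the genotype. The list held 9 basal or luminal epithelial markers, each called as risen. Markers that entered a list of selected genes cannot check the identity or purity of the sorted cells. The basal keratin gene Krt5 was at 26.9 ± 3.69 FPKM in control and 40.9 ± 3.35 in knockout libraries (SD, n = 3 each), and Psca, a surface protein of luminal cells, at 12.7 ± 4.04 and 29.8 ± 7.73 FPKM. Krt8, Krt18 and Epcam were not analysed here, and markers of other cell types, given below with both genes, were also present.

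Igf1 (ENSMUSG00000020053) lies on chromosome 10, 87858265 to 87937042, plus strand (GRCm38, GENCODE M21), where 8 transcripts are annotated with starts from 87858265 to 87861329. Igfbp4 (ENSMUSG00000017493) lies on chromosome 11, 99041244 to 99054392, plus strand, with 6 annotated transcripts. One value per gene was deposited, so the starts and isoforms used in these cells were not resolved. The sequence before the start that RefSeq lists (GRCm38.p6, both genes found in its promoter table) is shown because both genes rose and their start regions differ in make-up. For Igfbp4 the 250 bases before the start at 99041244 are printed, chr11:99040994-99041243. For Igf1 only 29 bases, chr10:87860957-87860985, are printed, since the 250 bases before its start at 87861111 lie within the first exon of other annotated transcripts. Capitals mark matches, on either strand, to the TATA box motif TATAAA, the CCAAT box motif and the GC box motif GGGCGG, and both sequences read 5′ to 3′ on the plus strand.
Igfbp4: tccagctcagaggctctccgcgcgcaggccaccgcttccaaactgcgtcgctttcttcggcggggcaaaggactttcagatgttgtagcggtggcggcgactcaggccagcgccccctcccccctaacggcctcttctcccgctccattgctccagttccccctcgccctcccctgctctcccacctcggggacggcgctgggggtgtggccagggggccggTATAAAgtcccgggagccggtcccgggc
Igf1: ctgcctagagcgATTGGtacacacagggc

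The window before Igfbp4 held 1 match, TATAAA, beginning 28 bases before the start. On either strand this motif was present in 12.4% of 32851 windows of the same length in the promoter table. The Igf1 window held 1 match, ATTGG, the reverse complement of CCAAT, beginning 142 bases before the start. That motif was in 33.8% of windows, and the GC box motif, found in neither gene's window, in 32.7%. The Igfbp4 window was 69.2% G or C with 22 CpG dinucleotides, more G and C than 89.6% of windows. The Igf1 window was 52.8% G or C with 5 CpG dinucleotides, more G and C than 51.1% of windows. The letters describe these windows only.

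Igf1, the ligand, was higher in every knockout library than in any control library. Control libraries 1, 2 and 3 were at 3.92, 6.20 and 5.57 FPKM, and knockout libraries 1, 2 and 3 at 12.1, 10.1 and 10.9 FPKM. The groups did not overlap, with the lowest knockout library 1.63 times the highest control library, and control library 1 was the lowest of all. The mean rose 2.12-fold, from 5.23 ± 1.18 to 11.1 ± 1.01 FPKM (SD, n = 3 each). On the log2(FPKM + 1) scale, which understates the change of low genes, limma gave a difference of 0.97 (SE 0.19, 95% interval 0.52 to 1.42) and an adjusted p of 0.00516 over the 632 listed genes. The exact two-sided permutation test over the 6 libraries gave p = 0.1, the smallest that 3 against 3 allows. Neither test, here or for the genes below, takes the authors' selection of the list into account. The intervals and p-values are thus no independent evidence of a difference. In bulk samples, more cells that make a transcript and more transcript per cell cannot be told apart.

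Igfbp4, the binding protein, was also higher in every knockout library. Control libraries 1, 2 and 3 were at 25.4, 32.0 and 24.4 FPKM, and knockout libraries 1, 2 and 3 at 47.9, 47.6 and 43.3 FPKM. The groups did not overlap, the lowest knockout library being 1.35 times the highest control library, which was library 2 as for Igf1. The mean rose 1.70-fold, from 27.3 ± 4.14 to 46.3 ± 2.56 FPKM (SD, n = 3 each). The limma difference was 0.75 on the log2(FPKM + 1) scale (SE 0.14, 95% interval 0.40 to 1.10), with an adjusted p of 0.00516, and the exact permutation test again gave its smallest possible p of 0.1. For both genes the knockout libraries were closer to each other than the control libraries were. The SD was 9.12% of the mean in knockout and 22.5% in control libraries for Igf1, and 5.53% and 15.2% for Igfbp4.

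**Figure D1:**
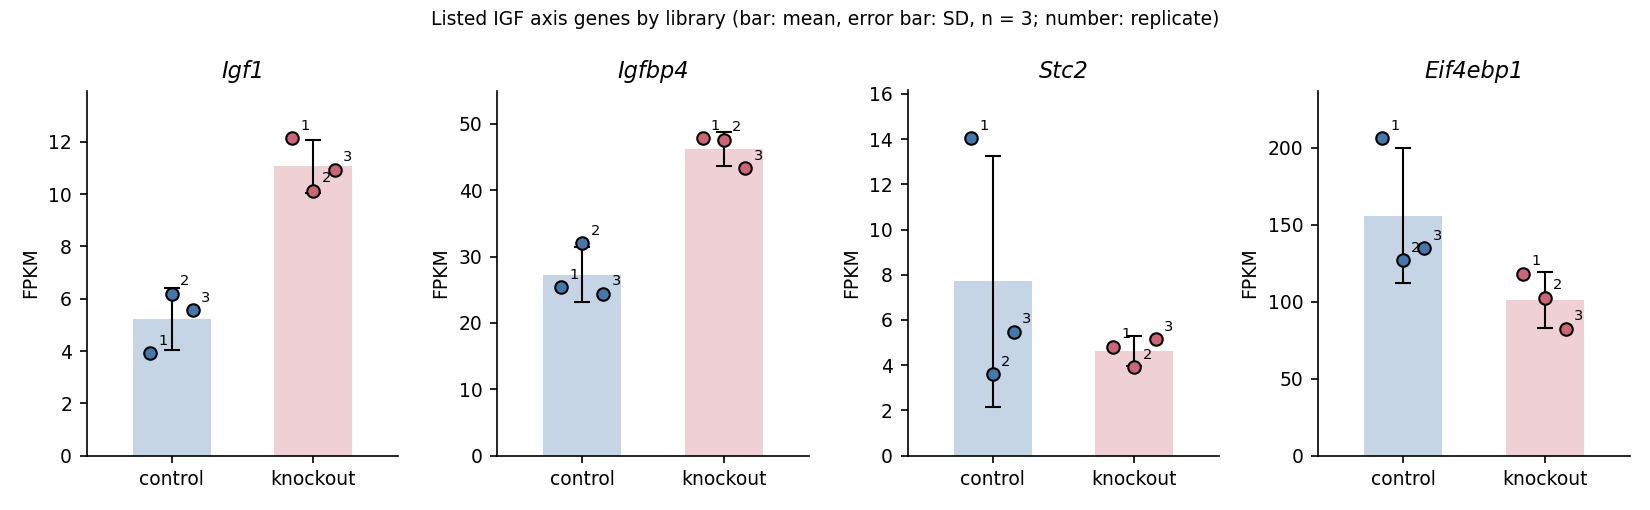
FPKM of the 4 listed IGF axis genes in each library, with points numbered by replicate, bars at the group mean and error bars of 1 SD (n = 3). Igf1 and Igfbp4 are higher in all 3 knockout libraries than in any control library, Stc2 overlaps between the groups with control library 1 at 14.0 FPKM, and Eif4ebp1 is lower in all 3 knockout libraries.

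These calls have to be read against the table they come from. limma called 72.6% of the 632 listed genes, 65.3% as risen and 7.28% as fallen. The groups did not overlap for 82.6% of the genes, and 66.9% were higher in all knockout libraries than in any control library. Both IGF genes being called is thus what most genes of the list showed. Igf1 was at position 294 and Igfbp4 at position 128 of 632 by mean level. By fold over all 632 genes, falls included, Igf1 was near the middle of the list, with 265 genes showing a larger fold. Igfbp4 was among the smaller rises, with 381 genes showing a larger fold. Among the 450 genes higher in knockout, 184 had a smaller fold than Igf1 and 68 a smaller fold than Igfbp4. The median fold over the listed genes was 1.91. When knockout values were divided by this median ratio (a log2 shift of 0.93), the difference was 0.14 for Igf1 (adjusted p = 0.589) and -0.15 for Igfbp4 (adjusted p = 0.454), so Igf1 moved about as the median listed gene did and the sign of Igfbp4 turned. With the adjustment widened to the 21951 protein-coding genes of the annotation, neither gene passed limma (adjusted p = 0.179 for each).

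**Figure D2:**
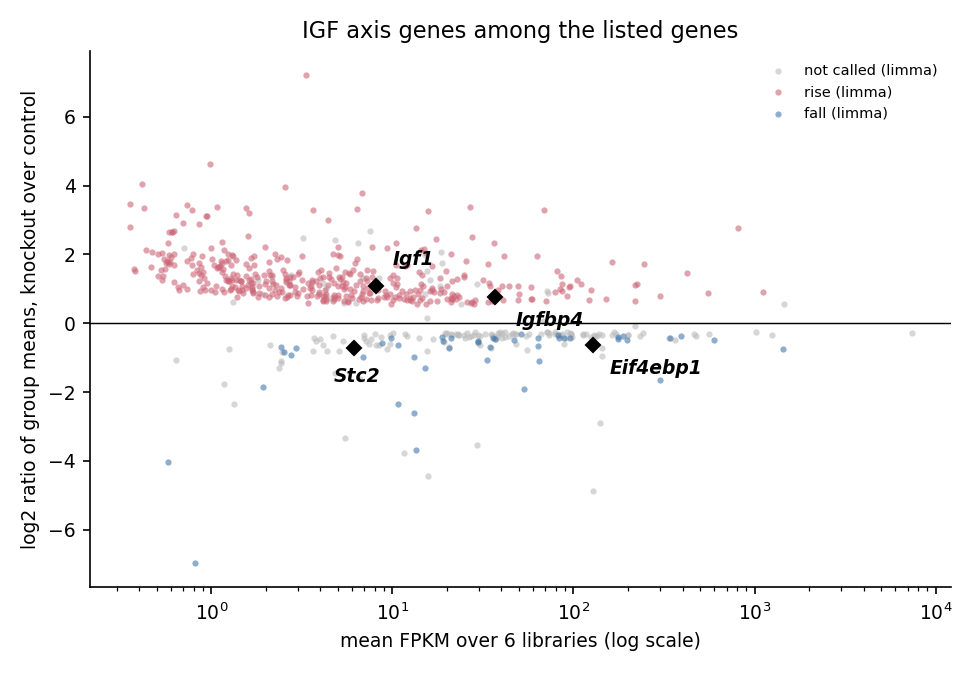
Mean FPKM over the 6 libraries (log axis) against the log2 ratio of the group means, knockout over control, for the 622 listed genes with a finite ratio, 1 point per gene, coloured by limma call. Igf1 and Igfbp4 (black diamonds) lie within the band of rises that holds most listed genes, and only 3 genes lie in the gap between folds of 0.85 and 1.4.

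The binding protein was the more abundant transcript of the pair in all 6 libraries, as far as the scaling for transcript length holds. The ratio of Igfbp4 to Igf1 FPKM, which is free of library scaling, was 6.49, 5.17 and 4.39 in control libraries 1, 2 and 3. It was 3.94, 4.70 and 3.96 in knockout libraries 1, 2 and 3. The groups overlapped, since knockout library 2 was above control library 3. The mean ratio was 5.35 ± 1.06 in control and 4.20 ± 0.43 in knockout libraries (SD, n = 3 each). The difference in mean log2 ratio was -0.33 (exact two-sided permutation test, p = 0.2, with 0.1 the smallest possible), so a larger change of the ligand than of its binding protein was not shown, nor was an equal change. Without control replicate 1 the difference was -0.185.

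The other genes of the axis were taken from lists of 71 genes for ligands and receptors, binding proteins, binding protein proteases and their inhibitors, signal transduction and the growth hormone arm. Only 4 of the 71 were in the table, Igf1 and Igfbp4 included, and the remaining genes, among them the receptor gene Igf1r, the protease gene Pappa and the other binding proteins, were not analysed here. limma called 2 of the 4 as risen and 0 as fallen, against 65.3% and 7.28% of all listed genes, while 1 was lower at an unadjusted p under 0.05. The median fold of the 4 was 1.17, against 1.91 over all listed genes.

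Stc2 (ENSMUSG00000020303, chromosome 11, 31357307 to 31370074, minus strand) encodes stanniocalcin 2, an inhibitor of PAPP-A. It was at 14.0, 3.61 and 5.48 FPKM in control libraries 1, 2 and 3 and at 4.82, 3.91 and 5.16 FPKM in knockout libraries 1, 2 and 3. The groups overlapped, and control library 1 stood far above the other 5 libraries. The means were 7.71 ± 5.56 and 4.63 ± 0.65 FPKM (SD, n = 3 each), with a limma difference of -0.45 (SE 0.42, 95% interval -1.46 to 0.57, adjusted p = 0.338). Without control replicate 1 the fold of knockout over control was 1.02 and the difference 0.04 (adjusted p = 0.887), so the lower mean in knockout rested on that library.

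Eif4ebp1 (ENSMUSG00000031490, chromosome 8, 27260329 to 27276674, plus strand) encodes 4E-BP1, a repressor of translation that mTOR inactivates by phosphorylation. It was at 206, 127 and 135 FPKM in control libraries 1, 2 and 3 and at 118, 103 and 82.5 FPKM in knockout libraries 1, 2 and 3. All knockout libraries lay below all control libraries, and control library 1 was again the highest. The means were 156 ± 43.8 and 101 ± 17.9 FPKM (SD, n = 3 each), 1.54 times higher in control. The limma difference of -0.60 (SE 0.23, 95% interval -1.15 to -0.05) just missed the threshold of 0.05 (adjusted p = 0.0503), and it passed without control replicate 2 (adjusted p = 0.0458), while the adjusted p reached 0.143 with other libraries left out. RNA levels carry no information on its phosphorylation.

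Markers of cells known to make IGF1 moved in the same direction as both genes, in a table where 65.3% of all genes were called as risen and the median fold was 1.91. The table held 5 of 20 fibroblast markers, and each of the 5 rose, with a median fold of 1.55 that was below that of the table. Col1a2, a chain of type I collagen, rose 1.55-fold from 28.7 ± 6.02 to 44.4 ± 0.83 FPKM (SD, n = 3 each). Col1a1, the other chain, rose 1.47-fold, and Thy1, a surface protein of stromal cells that other cell types share, rose 1.50-fold. The summed level of the 5 was 86.6, 111 and 91.7 FPKM in control libraries 1, 2 and 3 and 154, 148 and 152 FPKM in the knockout libraries.

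It held 19 of 25 myeloid markers, and each of the 19 rose (median fold 2.13, against 1.91 and 65.3% called as risen over the table). Cd74, the invariant chain of MHC class II that other cell types share, rose 2.15-fold from 140 ± 30.5 to 300.2 ± 8.08 FPKM (SD, n = 3 each). It made up a large part of the mean myeloid sum, which was 368 FPKM in control and 773 FPKM in knockout libraries. Lyz2, a lysozyme of macrophages and neutrophils, rose 1.91-fold and C1qa, a complement component made by macrophages, 2.13-fold. The summed level of the 19 was 329, 430 and 344 FPKM in control libraries 1, 2 and 3 and 772, 783 and 766 FPKM in the knockout libraries. No listed marker of either list was at 0 in any library. Pdgfra, Dcn, Cd68 and the smooth muscle and endothelial lists were not analysed here. The part that stromal or myeloid cells had in the rise of Igf1 and Igfbp4 was not tested.

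Markers of other cell types rose as well, again beside 65.3% of all listed genes. All 5 listed of 15 lymphoid markers rose, and the sum went from 139 ± 33.9 to 455 ± 105 FPKM, with the immunoglobulin genes Igkc and Ighm and the joining chain gene Jchain at the highest levels and folds of 3.27, 3.29 and 3.14, the smallest of the 5. All 5 listed of 12 basal markers rose, with Krt15, Krt5 and Krt14 at the highest levels and folds of 1.997, 1.52 and 1.70, and the sum going from 96.0 ± 16.3 to 181 ± 18.4 FPKM. All 4 listed of 18 luminal markers rose, with Ly6a and Psca among the most abundant and with the sum going from 98.8 ± 20.7 to 319 ± 44.2 FPKM (SD, n = 3 each). Among controls, library 2 was the highest for Igf1, Igfbp4 and the fibroblast, myeloid and luminal sums, at 0.25, 0.23, 0.20, 0.23 and 0.28 above the control mean on a log2 scale. Library 1 was the highest control for the lymphoid and basal sums.

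**Figure D3:**
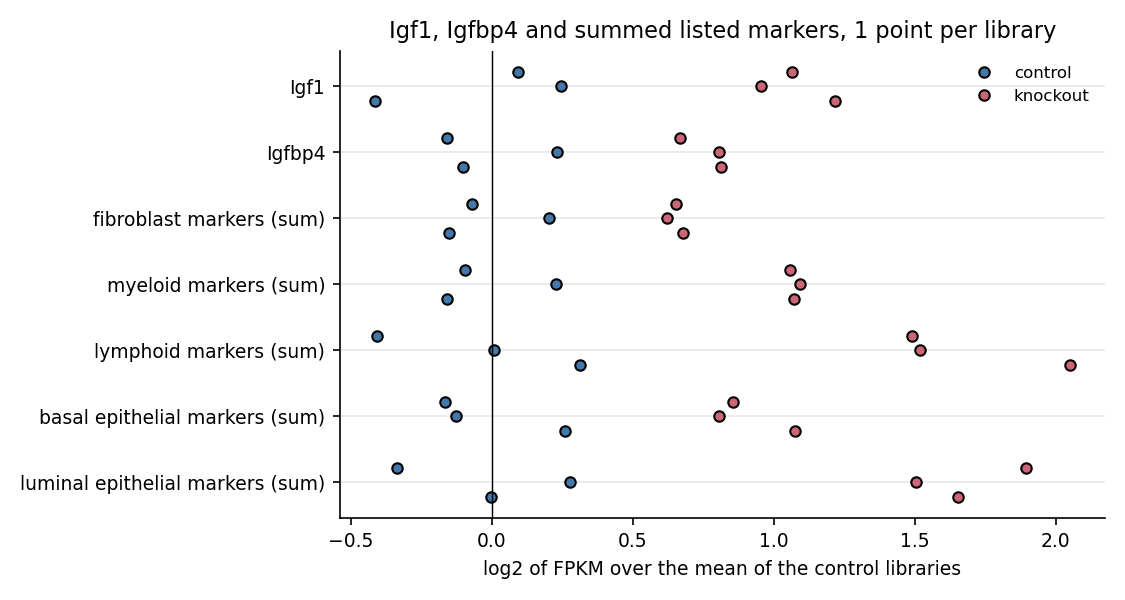
Each point is 1 library and gives the log2 of its FPKM over the mean of the control libraries, for Igf1, Igfbp4 and the summed listed markers of 5 cell types. In every row the 3 knockout libraries lie to the right of the 3 control libraries, from about 0.62 to 0.68 for the fibroblast sum up to 1.49 to 2.05 for the lymphoid sum.

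Each gene was then set against these sums within a library. The sums held only the 5 of 20 fibroblast and 19 of 25 myeloid markers that the authors' list contained, each called as risen. Since that list held almost no gene with a small difference, the size and sign of the ratios depend on which markers entered it. The p-values below do not take that selection into account. Igf1 relative to the fibroblast sum was 0.0452, 0.0560 and 0.0607 in control libraries 1, 2 and 3 and 0.0788, 0.0684 and 0.0721 in knockout libraries 1, 2 and 3. The groups did not overlap, and the ratio was 1.36 times higher in knockout (log2 difference 0.45, exact two-sided permutation test, p = 0.1, the smallest possible). Relative to the myeloid sum, Igf1 was at 0.0119, 0.0144 and 0.0162 in control and 0.0157, 0.0129 and 0.0143 in knockout libraries. These groups overlapped fully, with a log2 difference of 0.02 (p = 1, exact permutation test) that ranged from -0.0976 to 0.124 with 1 library left out.

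For Igfbp4, the ratio to the fibroblast sum was at 0.293, 0.289 and 0.266 in control libraries 1, 2 and 3 and 0.311, 0.322 and 0.286 in knockout libraries 1, 2 and 3. The groups overlapped, with a log2 difference of 0.11 (exact two-sided permutation test, p = 0.3). Relative to the myeloid sum it was at 0.0773, 0.0744 and 0.0710 in control and 0.0620, 0.0608 and 0.0566 in knockout libraries. Here every knockout library was lower, with a log2 difference of -0.31 (p = 0.1, the smallest the exact test allows). With the markers weighted alike in place of summed, the 4 differences were 0.384 and -0.069 for Igf1 and 0.0499 and -0.403 for Igfbp4, against fibroblast and myeloid markers in that order. The 4 ratios share libraries and sums, and no exact test of 3 against 3 can pass 0.05. Whether the 2 genes differ from each other on this measure comes down to the ratio of Igfbp4 to Igf1 given above, whose groups overlapped (p = 0.2, exact permutation test).

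**Figure D4:**
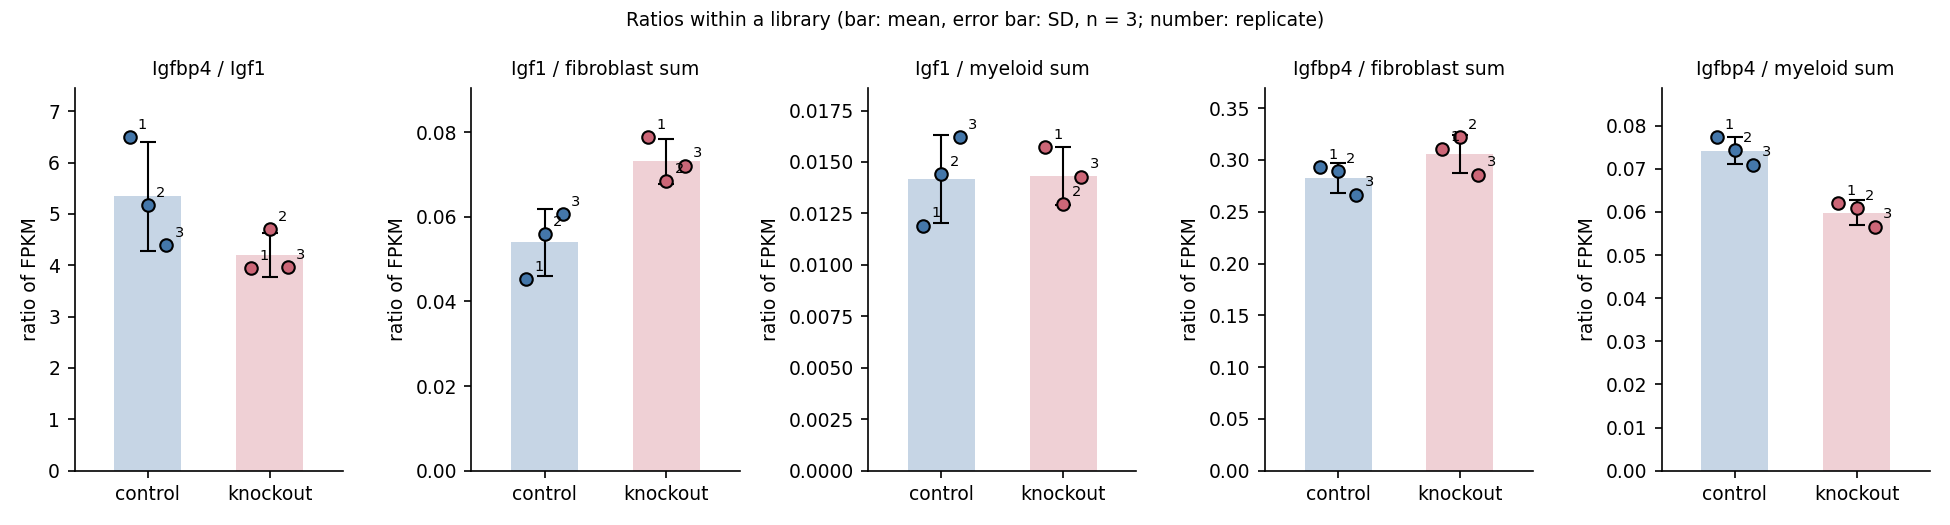
Ratios of FPKM within each library, with points numbered by replicate, bars at the group mean and error bars of 1 SD (n = 3), for Igfbp4 over Igf1 and for each gene over the summed listed fibroblast or myeloid markers. The groups are apart for Igf1 over the fibroblast sum, higher in knockout, and for Igfbp4 over the myeloid sum, lower in knockout, and they overlap in the other 3 panels.

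Likeness of pattern was measured as the root mean square difference between log2(FPKM + 1) profiles over the 6 libraries, each profile taken from its own control mean, among 599 other listed genes with an established symbol. The 5 profiles nearest to Igfbp4 were those of Aebp1, an extracellular matrix protein that binds collagen (difference 0.037), Clec12a, a C-type lectin of myeloid cells (0.056), Itgb7, a leukocyte integrin chain (0.067), Penk, the precursor of the enkephalins (0.067), and the alarmin Il33 (0.067). Aebp1 was at 15.1, 18.6 and 14.8 FPKM in control libraries 1, 2 and 3 and 29.4, 27.4 and 26.7 FPKM in the knockout libraries, a fold of 1.72 with control library 2 the highest control, as for Igfbp4. Penk was 1.61-fold and Il33 1.67-fold higher. Clec12a and Itgb7 had larger folds, 2.39 and 2.24, and were near Igfbp4 on this scale because the pseudocount of 1 shrinks the change of genes at 0.809 and 1.02 FPKM in control.

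The profiles nearest to Igf1 were less close. Among the 5 nearest were Serping1, the inhibitor of complement C1 (0.107), the orphan receptor gene Gprc5a (0.134), the annexin gene Anxa3 (0.138) and Cd53, a tetraspanin of leukocytes (0.139). Serping1 was at 45.4, 67.5 and 52.6 FPKM in control libraries 1, 2 and 3, in the same order as Igf1, and at 104, 104 and 102 FPKM in the knockout libraries, a fold of 1.88. The folds of Gprc5a, Anxa3 and Cd53 were 2.16, 2.11 and 2.40. Igf1 and Igfbp4 themselves differed by 0.221, which put Igfbp4 at rank 77 among the genes nearest to Igf1 and Igf1 at rank 231 among those nearest to Igfbp4. These are descriptions over 6 libraries of a list in which most genes rose.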

How the data were processed

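Per the submitters' processing notes, TopHat2 2.0.14, Cufflinks 2.2.1 and Cuffdiff were used with the build GRCm38, without role or order. The labels name both a bulk RNA kit (NEBNext Ultra RNA) and a droplet 3′ kit, and only for the former does scaling by length hold. The values were taken as FPKM made by the authors, judged from these tools and from how the numbers look, as the deposited header gives no unit. The table also holds the authors' group means, which equal the means of the libraries to a relative difference of 4.95e-06. Depth is unknown, and the sum over listed genes, 31468 to 36565 FPKM, does not give it.

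limma 3.58.1 (R 4.3.3, mean-dependent prior) was fitted on log2(FPKM + 1) of all 632 genes, with Benjamini-Hochberg adjustment and a threshold of 0.05. The fit was run on simulated data with the same spread for every gene and as many rises as falls. The authors' list differs from that setting, so the simulation cannot vouch for the calls made on it. Folds are ratios of group means without a pseudocount. Ratios within libraries were compared by exact permutation tests in Python 3.11.15 with scipy 1.17.1. All 632 identifiers matched GENCODE M21. Samples were grouped by genotype label and replicates numbered in accession order. The members and gene lists were chosen with earlier results of these data known. Named genes were both members, the listed IGF axis genes, the 5 nearest profiles to each member and the up to 3 highest listed markers of each cell type; others are named as not analysed, and 2 genes that the rule names are not reported here. Alternatives were another pseudocount, a minimum of 1 FPKM, centring, no trend, unmoderated variances, adjustment over 21951 protein-coding genes, equal weighting of the markers and leaving out each library.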

Additional observations from a re-analysis of the deposited data

How the results depend on the processing

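Igf1 and Igfbp4 stayed risen with a pseudocount of 0.1, a minimum mean of 1 FPKM, no trend, unmoderated variances and each library left out (limma differences 0.81 to 1.09 for Igf1 and 0.68 to 0.87 for Igfbp4, adjusted p at most 0.0226). These alternatives were run on the authors' selected list and do not take that selection into account. With knockout values divided by the table's median ratio, the difference was 0.14 for Igf1 and -0.15 for Igfbp4, Eif4ebp1 passed (-1.52, adjusted p = 0.00204), 1 IGF axis gene was called, and the table gave 71 rises and 163 falls, 234 in all. That scale sets the median listed gene to no change by construction. Adjusted over 21951 genes, Igf1 (0.97) and Igfbp4 (0.75) did not pass, and 23 rises and 1 fall, 24 in all, with 0 IGF axis genes remained, against 413 and 46 of 459 and 2 as deposited. With 1 library left out, 365 to 410 rises, 20 to 79 falls, 389 to 489 calls in all and 2 to 3 IGF axis genes were called. The Stc2 difference turned to 0.037 without control replicate 1 and ranged from -0.82 with 1 library left out. For Igf1 relative to myeloid markers the log2 difference of 0.02 turned to -0.11 with a pseudocount of 1 and -0.069 with markers weighted alike, and ranged from -0.0976 to 0.124 with 1 library left out; the cause was not tested. The other ratios kept their direction under each alternative run. No paired analysis was possible because the sample titles share no replicate number between the groups. Without counts, the counting error behind each FPKM value is unknown.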
